A study of Nematostella vectensis with 30 samples.

Results

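This section describes 29 short guide strands of newly annotated microRNAs (miRNAs) of the sea anemone Nematostella vectensis, in small RNA bound by its Argonaute proteins NveAGO1 and NveAGO2. The members were chosen by name and length: a table of 255 miRNA arms lists 86 newly annotated guides, 33 of which have a mature sequence of 21 or fewer bases, and 4 of these, numbers 23, 38, 67 and 93, were left out by number. The rule uses names and lengths, but the name itself rests on these data. The study annotated a miRNA as new only if it was enriched with an Argonaute protein over control IgG in these libraries. A dominant guide strand, a minimum of guide reads and presence in both replicates were also required. The rule was set with earlier results of these data known, and guides among the 4 left out differ strongly between groups, as given below. Of the 29 members, 22 are 21 bases long, 5 are 20 bases long (guides 33, 37, 44-1, 56 and 85) and 2 are 19 bases long (guides 59 and 87). The deposited name of each is a prefix that marks it as newly annotated followed by a number, and it is that number which is used here.

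A miRNA is cut from a hairpin precursor as a duplex. One strand, the guide, is kept by an Argonaute (AGO) protein and leads it to matching transcripts, while the other strand, the star, is mostly lost. In animals such pairing often rests on the seed, the bases from the 2nd to the 8th of the guide, whereas many miRNAs of cnidarians match their targets along nearly the whole length and lead to target cleavage. Nematostella carries AGO paralogs that share the miRNA pathway, so for each miRNA a question is which AGO holds it and at which stage.

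Lysates of early planulae, of primary polyps (polyps below) and of adult males (adults below) were immunoprecipitated (IP) with a rabbit antibody to NveAGO1 or NveAGO2, or with rabbit IgG as the control, which gave 9 groups of 2 libraries. In a separate experiment zygotes were injected with a Morpholino, an antisense oligonucleotide used to lower the output of a gene, against NveAGO1 or NveAGO2 or with a control Morpholino, and small RNA of whole planulae was sequenced. This gave 4 groups of 3 libraries, each knockdown (KD) with its own control. The libraries come from whole animals, so fewer cells with a miRNA and less miRNA per cell cannot be told apart. The labels name the replicates by number, and p-values measure the spread between these samples. The miRNA counts summed to 9948 to 66399 in the 6 IgG libraries, to 271198 to 7833947 in the 12 AGO IP libraries and to 23099 to 70321 in the 12 KD libraries. Unless another scale is named, a level is the count divided by the genome-mapped reads of its library and multiplied by 1000000 (CPM).

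Sequences are printed 5′ to 3′ with the seed in capitals. The first set holds the members with the highest levels and those that differed most between the AGOs, which the results below turn on.
guide 44-1: aCACAAAGaacggcugcgcg
guide 46: uGCGUGCAgccggaaauaguu
guide 85: aACAGACUcgcgacacggau
guide 59: uGUCAAAAaaucuguaggg
guide 96: uUUGUGUAuguuuauguuuag
guide 37: uCAGACUGccggaccguuag
guide 16: uGGCGGCCacgaacuacgaac
guide 33: aAAUCGCUguuggaaacugg
guide 11: cCAGAGAUucgggauuccugu
guide 13: uAUGUGACaaguuuaucaaug
Of the 29 members, 18 began with U, 6 with A, 5 with C and none with G, and their median GC content was 42.1%. U was the first base of 62.1% of the members, 58.5% of the 53 newly annotated guides of 22 or more bases and 59.6% of all 136 guides. These features were counted from the deposited sequences and not tested.

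The second set shows members that share bases with another arm of the table, since their counts are not separate measurements.
guide 44-1: aCACAAAGaacggcugcgcg
guide 44-2: aCACAAAGaacggcugcgcggg
guide 35: cACAAAGAacggcugcgcggg
guide 48-2: uAAUGUGGaaggaaaaaacgu
guide 48-1: uAAUGUGGaaggaaaaaacgug
guide 46: uGCGUGCAgccggaaauaguu
star 47-1: uGCGUGCAgccggaaauagu
guide 51: cACACAUUauacuaagacuca
nve-miR-9457: uACACAUUcuaagaaaagugcu
Guides 44-1 and 35 overlap over 19 bases, shifted by 1 base, so their seeds differ, and both lie within guide 44-2, a newly annotated guide of 22 bases. Guide 48-2 lacks only the last base of guide 48-1, and the 2 had the same count in all 18 libraries, so they were tested once. The star of 47-1 equals the first 20 bases of guide 46. Guide 51 shares its seed, but not the rest of its sequence, with the known nve-miR-9457. No other member shares 15 or more bases with another arm of the table.

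The members made up a small part of the miRNA counts. Their summed level was 159 ± 28.5 CPM (SD, n = 2) in the NveAGO1 IPs and 763 ± 456 CPM in the NveAGO2 IPs of early planulae, 1126 ± 116 and 2322 ± 34.1 CPM in polyps, and 568 ± 170.4 and 1452 ± 255 CPM in adults. In each stage both NveAGO2 libraries were above both NveAGO1 libraries. As a share of all miRNA counts this was 0.578% against 0.898% in early planulae, 0.113% against 0.370% in polyps and 0.284% against 1.32% in adults. On this share scale the IgG means were 0.717%, 0.273% and 0.506%, above the NveAGO1 mean and below the NveAGO2 mean at each stage. The IgG IPs gave summed levels of 29.7 ± 16.5, 276 ± 291 and 27.4 ± 10.1 CPM in the same order, and the first IgG library of polyps, at 482 CPM, was far above the second, at 69.96 CPM. All 29 members had counts in both NveAGO2 libraries of polyps, and 29, 26 and 22 of them stood above both IgG libraries in the NveAGO2 IPs of polyps, early planulae and adults, against 8, 16 and 17 in the NveAGO1 IPs. Enrichment over IgG in these libraries was a condition of annotation in the study, so these counts were partly fixed in advance. The share over all arms is not given here.

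**Figure D1:**
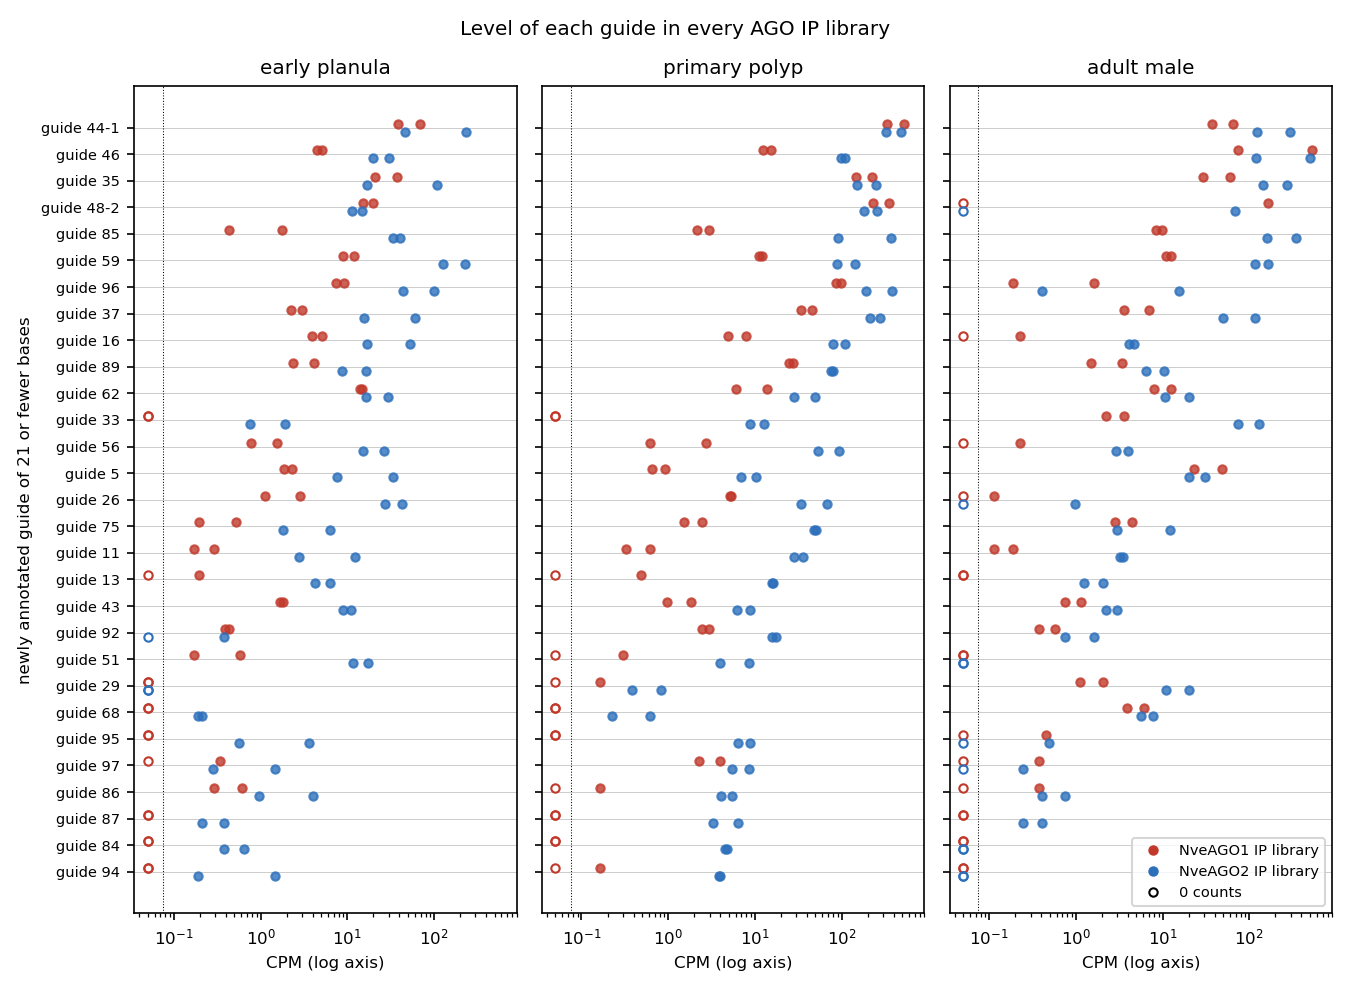
Level of each of the 29 guides in CPM (log axis) in every NveAGO1 (red) and NveAGO2 (blue) IP library of the 3 stages, with 2 libraries per group; open points left of the dotted line had 0 counts. The blue points lie to the right of the red ones for most guides, whereas guides 44-1, 35 and 48-2 overlap in polyps.

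The first comparison asks which AGO held each member at each stage. Many members were higher with NveAGO2, and on the scale of genome-mapped reads with all libraries none was higher with NveAGO1. In early planulae 18 of the 29 members were lower in the NveAGO1 than in the NveAGO2 IP, in polyps 20 and in adults 9 (edgeR's quasi-likelihood test, Benjamini-Hochberg adjusted p under 0.05 over 196 arms). All 29 members passed the count filter of that test. The background was 37.2%, 48.5% and 30.1% of all arms called lower with NveAGO1, and 10.7%, 15.8% and 12.2% called higher. At an unadjusted p under 0.05 the members higher with NveAGO1 also numbered 0 in each stage. DESeq2 also called 0 members higher in each stage. The share of members called lower with NveAGO1 (62.1%, 69.0% and 31.0%) was above the background in the first 2 stages and near it in adults. With other library sizes the members lower numbered 10 in early planulae with summed miRNA counts or TMM factors (background 21.4% and 22.4%), 13 in polyps with TMM factors (26.5%) and 16 in adults with summed miRNA counts (48.5%). The number lower fell to 5 and 9 in early planulae without the first or second NveAGO1 library, to 12 and 13 in polyps when either NveAGO1 library was left out, and to 3 in adults without the second NveAGO1 library. Exceptions to the count of 0 on the NveAGO1 side were guides 35, 44-1 and 48-2 in polyps with TMM factors (log2 1.71, 1.89 and 2.19), and guide 48-2 in adults without the first NveAGO2 library, where the remaining NveAGO2 library had 0 counts.

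Other lists of guides are given as a description. Among the newly annotated guides of 22 or more bases 17, 14 and 9 of the 51 tested were lower with NveAGO1 in early planulae, polyps and adults, and 4, 11 and 11 were higher. Among the known guides of 21 or fewer bases 11, 12 and 10 of 20 were lower and 4, 3 and 1 higher. The median log2 difference between NveAGO1 and NveAGO2 was -3.36, -3.44 and -1.75 for the members and -1.96, -2.39 and -1.22 for all 196 arms. With groups at 0 counts set to the floor of 3 counts over the group, and leaving out arms at or under the floor in both, the medians were -2.64, -3.39 and -2.03 for 27, 29 and 24 members and -1.75, -2.37 and -1.23 for all arms. Of the 4 short guides left out by number, guide 23 was higher with NveAGO1 in adults (log2 3.24, SE 1.003, adjusted p = 0.0075), while guides 38 and 93 were lower there and in polyps. The count of 0 members called higher with NveAGO1 therefore holds for the 29 members and not for all 33 short guides. No difference between lists was tested.

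The AGO2 preference is the NveAGO2 mean CPM as a percentage of the NveAGO1 and NveAGO2 means together, taken for members with at least 20 CPM in 1 AGO library of the stage, and a member was put on a side past 70%. On this measure 10 of 12 members were on the NveAGO2 side in early planulae, 12 of 15 in polyps and 7 of 11 in adults. The only member on the NveAGO1 side was guide 48-2 in adults, where its preference for NveAGO2 was 29.5%. Over all guides with that level 58.3%, 60.2% and 47.6% were on the NveAGO2 side. The median preference for NveAGO2 was 90.3%, 88.3% and 82.6% for the members, 84.02%, 80.6% and 57.7% for all guides, 87.6%, 85.9% and 87.6% for the known guides of 21 or fewer bases, and 64.8%, 65.7% and 27.5% for the newly annotated guides of 22 or more bases. By length, both guides of 19 bases were on the NveAGO2 side at every stage without the minimum level, and so were the 5 guides of 20 bases in early planulae and adults, with guide 44-1 as the exception in polyps. Of the guides of 21 bases 17 of 21, 19 of 22 and 11 of 19 with counts were on that side, and 1 was on the NveAGO1 side in adults. Guide 87, of 19 bases, had only 5 NveAGO2 counts in early planulae and 3 in adults. No difference by length was tested.

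**Figure D2:**
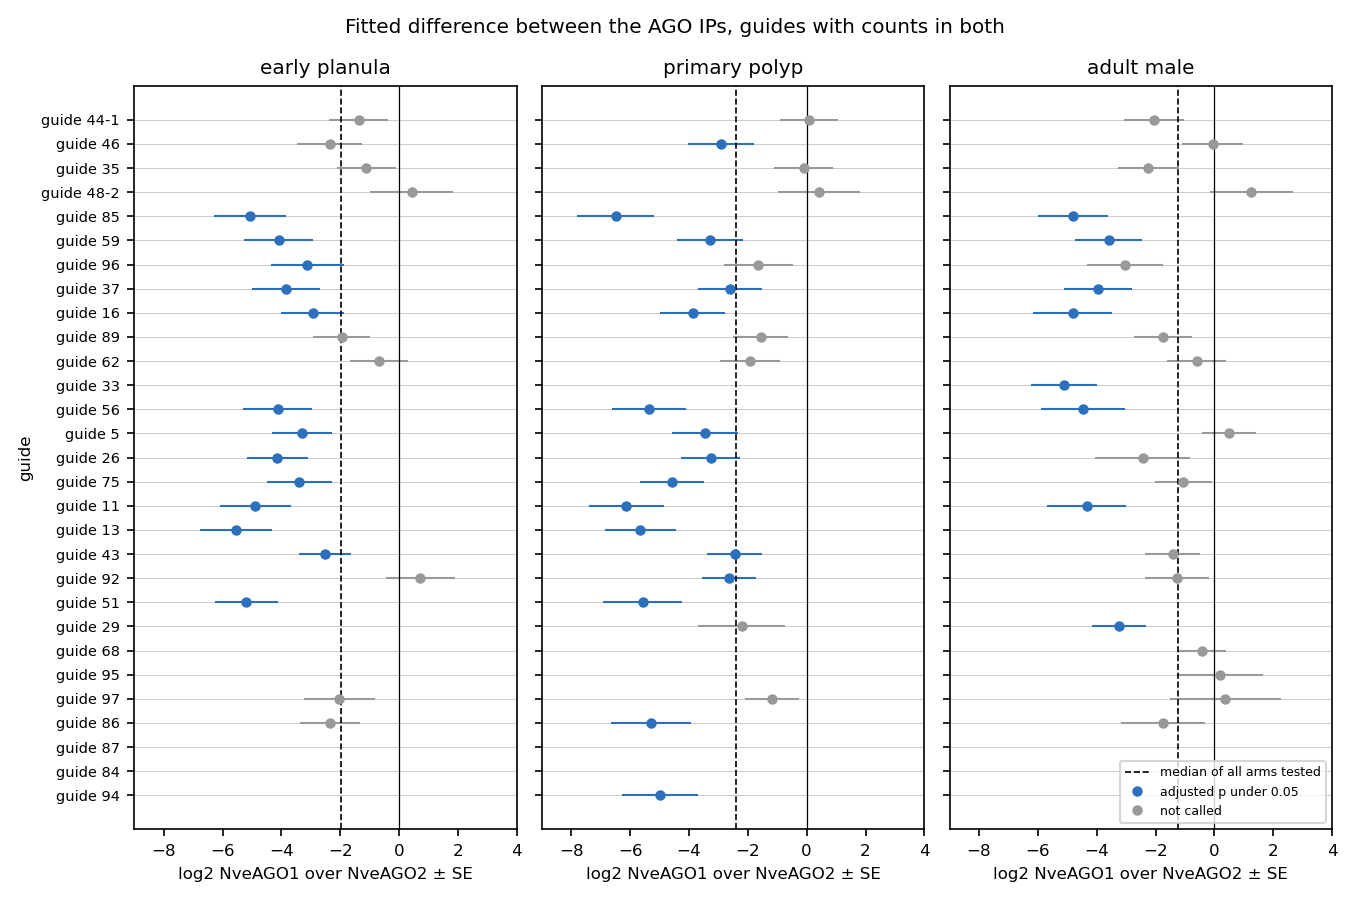
Fitted log2 difference between the NveAGO1 and NveAGO2 IPs with its SE for the members that had counts in both IPs of a stage; blue points passed an adjusted p of 0.05, grey ones did not, and the dashed line is the median of the 196 arms tested. No blue point lies to the right of 0.

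Called lower with NveAGO1 in all 3 stages were 8 members, guides 11, 13, 16, 33, 37, 56, 59 and 85. Guide 59, of 19 bases, was the most abundant member bound to NveAGO2 in early planulae. It had 8.88 and 11.9 CPM in the NveAGO1 libraries and 127 and 228 CPM in the NveAGO2 libraries of that stage (log2 -4.09, SE 1.16, adjusted p = 0.0045). In polyps the levels were 12.2 and 11.2 CPM against 88.4 and 142 CPM (log2 -3.30, SE 1.13, adjusted p = 0.011) and in adults 12.6 and 10.9 CPM against 167 and 116 CPM (log2 -3.59, SE 1.14, adjusted p = 0.0089). The NveAGO1 level lay between 8.88 and 12.6 CPM in all 6 libraries, and no NveAGO1 library reached an NveAGO2 library. The polyp IgG libraries had 39.4 and 1.05 CPM, so the first of them was above both NveAGO1 libraries.

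In early planulae guide 85, of 20 bases, stood at 0.431 and 1.75 CPM with NveAGO1 and 33.4 and 40.6 CPM with NveAGO2 (log2 -5.06, SE 1.23, adjusted p = 0.0015). In polyps it had 2.13 and 2.93 CPM with NveAGO1 and 91.3 and 369 CPM with NveAGO2 (log2 -6.48, SE 1.31, adjusted p = 0.00015), where the second NveAGO2 library was well above the first. The NveAGO1 levels in polyps were below both IgG libraries, which had 41.6 and 4.21 CPM, and in early planulae they were within the IgG range, at 1.32 and 3.22 CPM, or below it. In adults it had 8.36 and 9.75 CPM and 349 and 159 CPM (log2 -4.81, SE 1.20, adjusted p = 0.0017). This guide kept its call without any single library of a stage, except in early planulae without the first NveAGO1 library (adjusted p = 0.051).

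Guide 37, also of 20 bases, reached 275 and 214 CPM in the NveAGO2 libraries of polyps and 45.7 and 34.3 CPM in the NveAGO1 libraries (log2 -2.61, SE 1.09, adjusted p = 0.033). The call was lost when any 1 of the 4 libraries of the stage was left out (adjusted p = 0.065 to 0.18). In early planulae the levels were 3.02 and 2.24 CPM and 15.4 and 60.1 CPM (log2 -3.83, SE 1.15, adjusted p = 0.0065), and in adults 6.99 and 3.56 CPM and 116 and 50.2 CPM (log2 -3.96, SE 1.16, adjusted p = 0.0049). The 2 groups did not overlap at any stage, and the polyp IgG libraries had 54.8 and 5.79 CPM, the first of them above both NveAGO1 libraries.

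Guide 16 had 3.97 and 5.07 CPM with NveAGO1 and 16.9 and 52.9 CPM with NveAGO2 in early planulae (log2 -2.94, SE 1.06, adjusted p = 0.02), and 4.88 and 7.80 CPM against 79.8 and 109 CPM in polyps (log2 -3.88, SE 1.11, adjusted p = 0.0031). The polyp IgG libraries had 26.3 and 2.10 CPM for it, the first above both NveAGO1 libraries. In adults only 2 counts were left in the NveAGO1 libraries against 39 in the NveAGO2 libraries, a ratio of 30.7 with a 95% counting interval of 7.95 to 263.

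Several members had few or no NveAGO1 counts. Guide 33 had 0 counts in both NveAGO1 libraries of polyps and 43 and 167 counts in the NveAGO2 libraries, which is at least 36.6-fold higher with NveAGO2 when 3 counts over the group are taken as the floor. Guides 95, 87 and 84 were likewise at 0 with NveAGO1 in polyps and at least 22.3-fold, 17.4-fold and 14.5-fold higher with NveAGO2. Guide 13 had 3 counts against 292 in the same stage, a ratio of 50.9 (95% counting interval 17.3 to 248), and guide 51 had 1 against 133, a ratio of 69.6 (interval 12.3 to 2769). Such intervals cover counting error only. All of these were called.

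Guides 46 and 96 were called lower with NveAGO1 in 1 stage each. By preference both were on the NveAGO2 side in early planulae and polyps, at 83.8% and 88.3% for guide 46 and 89.7% and 75.7% for guide 96. Guide 96 had 9.14 and 7.41 CPM with NveAGO1 and 44.3 and 99.7 CPM with NveAGO2 in early planulae (log2 -3.12, SE 1.23, adjusted p = 0.034), a call lost without 3 of the 4 libraries in turn. In polyps it had 98.8 and 85.6 CPM and 384 and 191 CPM (log2 -1.64, SE 1.16, adjusted p = 0.21), so that the groups stood apart but the difference did not pass. Guide 46 had 15.2 and 12.4 CPM against 109 and 99.5 CPM in polyps (log2 -2.92, SE 1.13, adjusted p = 0.022) and in adults 74.6 and 523 CPM against 118 and 505 CPM (log2 -0.06, SE 1.05, adjusted p = 0.99).

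Never called between the AGOs were 7 members, guides 35, 44-1, 48-2, 62, 68, 89 and 97, with the limits on guides 35, 44-1 and 48-2 given above. Guide 44-1 led the members in the NveAGO1 IPs of early planulae and polyps and in the NveAGO2 IPs of polyps. In polyps it had 527 and 331 CPM with NveAGO1 and 482 and 329 CPM with NveAGO2 (log2 0.08, SE 0.97, adjusted p = 0.97), and the IgG libraries stood at 112 and 31.6 CPM. In early planulae it had 69.1 and 38.98 CPM and 45.9 and 234 CPM (log2 -1.37, SE 0.99, adjusted p = 0.24), where the first NveAGO2 library lay between the 2 NveAGO1 libraries. In adults the levels were 64.7 and 36.9 CPM and 299 and 122 CPM (log2 -2.05, SE 1.01, adjusted p = 0.091).

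Guide 35, which shares 19 bases with it, had 37.1 and 20.95 CPM with NveAGO1 and 17.1 and 108 CPM with NveAGO2 in early planulae, 224 and 146 against 248 and 149 CPM in polyps, and 59.2 and 29.4 against 274 and 146 CPM in adults (log2 -2.24, SE 1.04, adjusted p = 0.073). Counts of guide 44-2, which contains both, summed to 29194 over all 18 libraries, against 15980 for guide 44-1 and 8686 for guide 35. The table does not show whether a read was counted on more than 1 of the 3, and miRNA counts came to 101% of genome-mapped reads in one polyp NveAGO1 library, the second.

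Guide 48-2 had 15.1 and 19.98 CPM with NveAGO1 and 11.2 and 14.9 CPM with NveAGO2 in early planulae, and 229.5 and 353 CPM against 182 and 259 CPM in polyps (log2 0.40, SE 1.39, adjusted p = 0.84). In adults it had 1443 and 0 counts in the 2 NveAGO1 libraries and 280 and 0 counts in the 2 NveAGO2 libraries, so the first library of each IP was high and the second had none. The second adult libraries held 910399 and 491868 miRNA counts, and a count of 0 allows up to 3 counts in each. Its side in adults (log2 1.26, SE 1.42, adjusted p = 0.47) rests on the first libraries alone.

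Guide 46 was higher in the second adult library of both IPs, with 651 and 2789 counts with NveAGO1 and 479 and 2466 with NveAGO2, or 276 and 3063 and 1001 and 5014 counts per 1000000 miRNA counts. Guide 96 was higher in the first library of both IPs, with 14 and 1 counts and 62 and 2 counts. The star of 47-1, equal to guide 46 without its last base, had 94 and 323 counts with NveAGO1 and 159 and 444 with NveAGO2 in these libraries. Whether same-numbered adult libraries came from the same animals is not given in the sources used here.

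In the interaction test, which asks whether the NveAGO1 to NveAGO2 difference changed between stages, 0 of 29 members passed (3.57% of all 196 arms did), and 3 had an unadjusted p under 0.05. The call depends on the scale: with the sum of miRNA counts as library size 10 members passed, and with TMM factors 3. The share of all arms that passed on these 2 scales is not given here, so the numbers are not read as particular to the members. The members with the smallest p were guide 95 (adjusted p = 0.054) and guide 5 (adjusted p = 0.11). Guide 95 had 0 NveAGO1 counts in early planulae and polyps, and in adults 4 and 0 counts with NveAGO1 and 2 and 0 with NveAGO2. Guide 5 was called lower with NveAGO1 in early planulae, with 2.33 and 1.85 CPM against 7.72 and 33.8 CPM (log2 -3.29, SE 1.01, adjusted p = 0.0073). It was also called lower in polyps (log2 -3.44, SE 1.12, adjusted p = 0.008). In adults it had 23.3 and 48.4 CPM with NveAGO1 and 20.3 and 30.5 CPM with NveAGO2 (log2 0.49, SE 0.92, adjusted p = 0.68). Leaving out the first NveAGO2 library of adults brought the number to 2, and leaving out the second NveAGO2 library of polyps brought it to 1.

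The second comparison asks how the members changed between stages within one IP. The scale decides much of the answer here. The miRNA counts were 2.84% of genome-mapped reads in the first NveAGO1 library of early planulae and 99.02% in that of polyps. The steps were fitted as shares of the miRNA counts, and the directions below are those that also passed with genome-mapped reads and with TMM factors unless stated. The median log2 difference of all 196 arms between polyps and early planulae was -3.14 in the NveAGO1 IP on the miRNA scale, 1.73 with genome-mapped reads and 0.10 with TMM factors, and in the NveAGO2 IP -1.04, 1.81 and 0.06.

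Between polyps and adults a set of members changed on all 3 scales. In the NveAGO1 IP 10 members were higher and 3 lower in adults (background 37.8% and 15.8% of arms), and in the NveAGO2 IP 8 were higher and 7 lower (background 43.4% and 14.8%). Of these, 5 higher and 3 lower in the NveAGO1 IP, and 3 higher and 7 lower in the NveAGO2 IP, passed on every scale. The backgrounds are those of the miRNA scale, and the share of all arms that passed on every scale is not given here. The median log2 difference of the members was 0.07 in the NveAGO1 IP and -0.58 in the NveAGO2 IP, beside 0.47 and 1.27 for all arms. With bounds for groups at 0 these medians were 0.53 and -0.65 for the members and 0.93 and 1.22 for all arms.

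Guides 29, 33 and 68 were higher in adults in both IPs. Guide 33 had 0 and 0 counts in the NveAGO1 libraries of polyps and 31 and 12 in those of adults, at least 41.4-fold higher as a share of miRNA counts. In the NveAGO2 IP it rose from 13.3 and 21.3 to 1095 and 734 counts per 1000000 miRNA counts (log2 5.71, SE 0.93, adjusted p = 1.5e-06). Guide 68 had 0 counts with NveAGO1 in both young stages and 53 and 21 in adults, at least 71.2-fold higher than in polyps, and with NveAGO2 it rose from 3 and 3 to 23 and 38 counts (log2 6.54, SE 1.02, adjusted p = 9e-07). Guide 29 was not seen in any AGO library of early planulae, had 4 and 5 counts with NveAGO2 in polyps and 81 and 53 in adults (log2 7.17, SE 1.03, adjusted p = 2.1e-07), and in adults stood at 2.06 and 1.12 CPM with NveAGO1 against 20.02 and 10.9 CPM with NveAGO2 (log2 -3.23, SE 0.93, adjusted p = 0.0046).

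Guides 46 and 5 rose in the NveAGO1 IP on every scale. Guide 46 went from 15.4 and 12.3 counts per 1000000 miRNA counts in polyps to 276 and 3063 in adults (log2 6.91, SE 1.06, adjusted p = 2.5e-07), and guide 5 from 0.924 and 0.646 to 85.9 and 283 (log2 7.76, SE 1.09, adjusted p = 4.1e-08). In the NveAGO2 IP both were higher on the miRNA scale (log2 4.18, SE 0.93, adjusted p = 0.0002 for guide 46) but not with genome-mapped reads (adjusted p = 0.21). Guide 59 went from 12.3 and 11.1 to 46.6 and 63.7 with NveAGO1 (log2 2.22, SE 0.77, adjusted p = 0.014), which did not pass on the other scales. Guides 85 and 35 were also higher in adults on the miRNA scale, for guide 85 from 137 and 620.2 to 2950.3 and 1576 with NveAGO2 (log2 2.58, SE 0.80, adjusted p = 0.0057) and for guide 35 from 374 and 249.8 to 2319 and 1448 (log2 2.60, SE 0.77, adjusted p = 0.004). With genome-mapped reads their log2 differences were 0.14 and 0.08, and neither passed.

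Guides 16, 26 and 96 fell in adults in both IPs. Guide 26 had 327 and 449 counts in the NveAGO2 libraries of polyps and 4 and 0 in those of adults (log2 -4.23, SE 1.07, adjusted p = 0.00091), and in the NveAGO1 libraries it went from 17 and 33 counts to 1 and 0. Guide 96 went from 578 and 321 to 129.5 and 4.07 counts per 1000000 miRNA counts with NveAGO2 (log2 -2.75, SE 0.90, adjusted p = 0.0084) and from 99.7 and 85.1 to 5.93 and 1.10 with NveAGO1 (log2 -4.51, SE 1.01, adjusted p = 0.00016). Guide 16 went from 120.1 and 182 to 39.7 and 40.7 with NveAGO2 (log2 -1.91, SE 0.84, adjusted p = 0.047). The low members 51, 84 and 94 had 0 counts in all 4 adult AGO libraries after 133, 83 and 70 counts over the NveAGO2 libraries of polyps, which is at least 3.89-fold, 2.43-fold and 2.05-fold lower, and guide 97 went from 113 counts to 1, a ratio of 9.91 (95% counting interval 1.74 to 395). The number higher in the NveAGO1 IP was 6 without the first NveAGO1 library of polyps. The number lower in the NveAGO2 IP was 1 without the second adult NveAGO2 library and 2 without either NveAGO2 library of polyps.

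**Figure D3:**
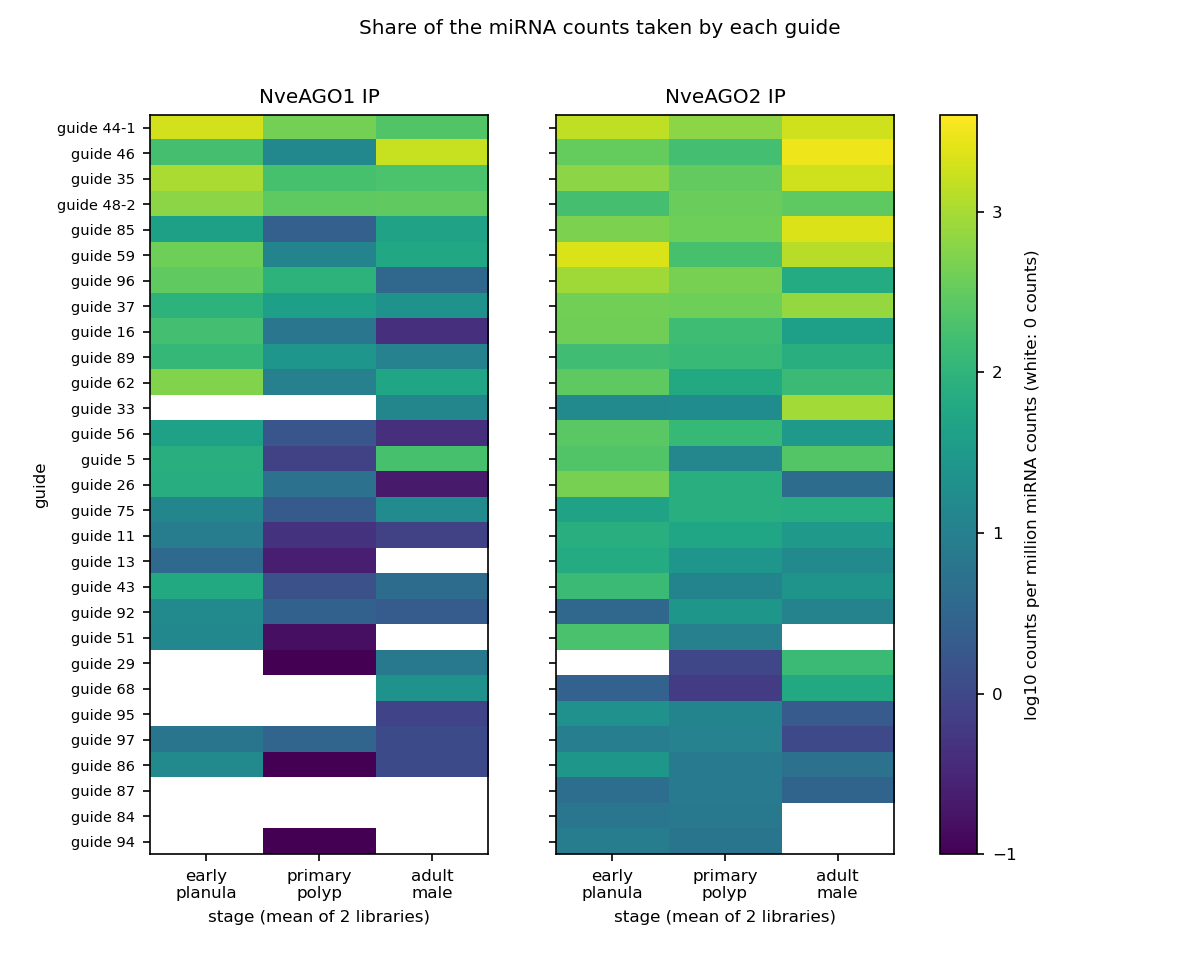
Mean share of the miRNA counts taken by each guide (log10 of counts per 1000000 miRNA counts, 2 libraries per group) in the NveAGO1 and NveAGO2 IPs of each stage; white cells had 0 counts. Guides 33, 29 and 68 are brightest in adults, and guides 51, 84 and 94 have no counts there.

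Between early planulae and polyps 17 members were lower in the NveAGO1 IP and 0 higher (background 65.8% and 1.53% of arms), and in the NveAGO2 IP 6 were lower and 1 higher (background 27.6% and 7.14%). For the higher direction in the NveAGO1 IP an unadjusted p under 0.05 also gave 0 members, and DESeq2 gave 0, while genome-mapped reads gave 6 and TMM factors 1. The share of all arms called higher on those 2 scales is not given here. Of the 17 lower members 12 had the other sign with genome-mapped reads and 5 with TMM factors, and of the 6 lower ones in the NveAGO2 IP 2 had the other sign with genome-mapped reads. The median of the members was -2.50 in the NveAGO1 IP and -0.94 in the NveAGO2 IP, or -3.73 and -0.96 with bounds, beside -3.47 and -1.12 for all arms with bounds.

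On the miRNA scale guide 44-1 went from 2431 and 1475 counts per 1000000 miRNA counts in the NveAGO1 libraries of early planulae to 532 and 329 in polyps (log2 -2.18, SE 0.72, adjusted p = 0.0068), whereas with genome-mapped reads it was higher in polyps (log2 2.99, adjusted p = 0.033). Guide 35 went from 1305 and 793 to 227 and 145 (log2 -2.50, SE 0.77, adjusted p = 0.004) and also had the other sign with both other scales. Guide 62 went from 498 and 560.5 to 6.16 and 13.9 (log2 -5.70, SE 0.96, adjusted p = 3.9e-06); with genome-mapped reads its log2 difference was -0.52 and did not pass. Guide 59 went from 2409 and 2017 to 133 and 239 with NveAGO2 (log2 -3.57, SE 0.80, adjusted p = 0.00061), and guide 26 from 516 and 380.1 to 101 and 57.3 (log2 -2.50, SE 0.84, adjusted p = 0.019), and guide 62 from 317 and 262 to 43.02 and 82.3 (log2 -2.20, SE 0.82, adjusted p = 0.035). For guide 59 in the NveAGO2 IP the log2 difference was -0.62 with genome-mapped reads (adjusted p = 0.67) and -2.38 with TMM factors (adjusted p = 0.017). Guides 26 and 62 changed sign there with genome-mapped reads and did not pass with TMM factors.

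Guide 92 was the one member higher in polyps than in early planulae on every scale, and only in the NveAGO2 IP. It had 4 and 0 counts in the NveAGO2 libraries of early planulae and 77 and 233 in those of polyps (log2 2.84, SE 1.01, adjusted p = 0.027). The call was lost without either NveAGO2 library of polyps, without the second early planula NveAGO2 library, and in DESeq2. In the NveAGO1 IP the same guide was lower in polyps on the miRNA scale (log2 -2.43, SE 0.98, adjusted p = 0.026) and higher with genome-mapped reads (log2 2.65, adjusted p = 0.048), so its direction there follows the scale.

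The star strands show how much of each duplex stayed as the named guide. The study required a dominant guide strand for annotation and classed starless miRNAs separately, so a high guide share was partly fixed in advance. For 6 members (guides 35, 43, 44-1, 94, 95 and 97) the star had 0 counts in all 18 libraries, and for the other 23 the guide made up a median of 92.6% of the guide and star counts over those libraries. Of these, 14 were above 90%, 8 between 56.2% and 89.4%, and 1, guide 68, at 3.42%. For guide 68 the star far exceeded the guide: adults had 1334 and 1549 star counts against 53 and 21 guide counts with NveAGO1, and 333 and 575 against 23 and 38 with NveAGO2.

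For some members the guide share differed between the AGOs, in both directions. The same count over all guide and star pairs is not given here, so the numbers are not read as particular to the members. Among the members with star counts the 95% intervals stood apart with a lower share in NveAGO1 for 5 of 19 members in early planulae, 5 of 20 in polyps and 4 of 19 in adults, and with a higher share for 1, 3 and 0. For guide 11 the guide was 22.7% (95% Wilson interval 10.1% to 43.4%) of the counts with NveAGO1 and 88.8% (95% Wilson interval 81.01% to 93.6%) with NveAGO2 in early planulae, and 12.9% (95% Wilson interval 5.13% to 28.9%) against 95.6% (95% Wilson interval 93.8% to 96.97%) in polyps. The star was thus the more frequent strand with NveAGO1 and the guide with NveAGO2, from 22 and 31 counts with NveAGO1. For guide 59 the share was 69.9% (95% Wilson interval 64.7% to 74.6%) against 98.4% (95% Wilson interval 97.8% to 98.8%) in early planulae and 64.1% (95% Wilson interval 56.7% to 70.9%) against 95.7% (95% Wilson interval 94.8% to 96.4%) in polyps.

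Guide 85 had a share of 46.3% (95% Wilson interval 40.4% to 52.3%) with NveAGO1 and 88.9% (95% Wilson interval 87.6% to 90.1%) with NveAGO2 in adults, and guide 29 had 48% (95% Wilson interval 34.8% to 61.5%) against 74.03% (95% Wilson interval 67.2% to 79.9%). Guide 16 had 53.8% (95% Wilson interval 44.8% to 62.5%) against 77.02% (95% Wilson interval 75.3% to 78.7%) in polyps. The other way, guide 62 had 0 star counts among 316 counts with NveAGO1 in early planulae (lower end of the interval for the guide share 98.8%) against a guide share of 95.4% (95% Wilson interval 92.6% to 97.2%) with NveAGO2. In polyps it had 0 star counts among 106 (lower end 96.5%) against 86.4% (95% Wilson interval 84.1% to 88.5%). Guide 26 had 98.04% (95% Wilson interval 89.7% to 99.7%) against 83.7% (95% Wilson interval 81.2% to 85.9%) in polyps, and guide 48-2 had 99.97% against 99.1%. In polyps the NveAGO1 levels of guides 11, 16, 59 and 85 were below the first IgG library, so that shares there include counts at the control level. The intervals pool 2 libraries and cover counting error only, and the difference between the AGOs was not tested over libraries. For some members the 2 libraries spread more widely than the interval. Guide 85 in adults was at 62.4% and 34% in the NveAGO1 libraries and 93.5% and 81.7% in the NveAGO2 libraries. Guide 16 in polyps was at 38.1% and 62.3% against 80.2% and 76.2%.

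**Figure D4:**
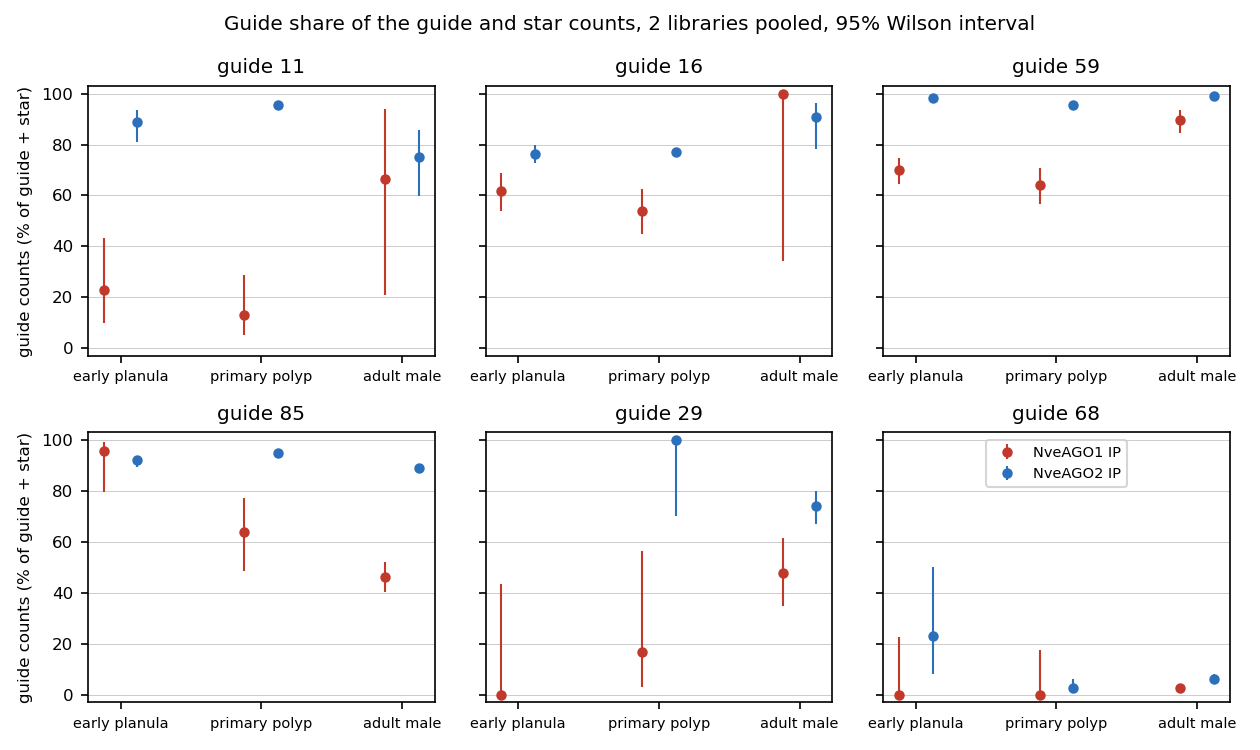
Guide counts as a percentage of guide and star counts for 6 members by stage, with the 2 libraries of each group pooled and bars for the 95% Wilson interval; red is the NveAGO1 IP and blue the NveAGO2 IP. Guide 11 is at 22.7% and 12.9% with NveAGO1 in the young stages and at 88.8% and 95.6% with NveAGO2, and guide 68 stays below 24% throughout.

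The knockdown libraries ask whether the members change when 1 AGO is depleted. All 29 members are in that table with the same sequences, but they were rare: the sum over all 12 libraries had a median of 6 counts and a maximum of 351, and guides 29 and 87 had none. Only guides 35, 44-1 and 59 passed the filter of 10 counts in 3 libraries. None of the 3 was called in either KD, where 42.6% of the 61 arms tested were higher and 9.84% lower in AGO1 KD, and 8.2% and 21.3% in AGO2 KD. At an unadjusted p under 0.05 the number was also 0 in each KD and direction, and DESeq2 called none either. The 0 does not hold for all short guides: of the 4 left out by number, guide 38 was higher in AGO1 KD (log2 2.49, adjusted p = 5.6e-05) and in AGO2 KD (log2 2.68, adjusted p = 3.1e-05) and guide 93 in AGO2 KD (log2 1.68, adjusted p = 0.024). Values below are counts per 1000000 of the mean spike-in count of the library. The median log2 difference of all 61 arms was 0.82 in AGO1 KD and -0.33 in AGO2 KD on this scale, and -0.13 and 0.43 when scaled to summed miRNA counts.

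Guide 44-1 had 737, 452 and 1049 in AGO1 KD and 549.8, 401 and 309 in its control (log2 0.82, SE 0.52, adjusted p = 0.18). In AGO2 KD it had 369.9, 594 and 195 against 1068, 455 and 485 (log2 -0.78, SE 0.53, adjusted p = 0.27). Guide 35 had 230.4, 172 and 599.7 against 179.5, 152 and 129 in AGO1 KD (log2 1.15, SE 0.58, adjusted p = 0.088). The third AGO1 KD library of guides 44-1 and 35 was the highest, and the groups overlapped for both.

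In AGO2 KD guide 35 had 176, 411 and 55.8 against 297, 136 and 189 (log2 0.03, SE 0.60, adjusted p = 0.99). Guide 59, the most one-sided of the 3 in the IPs, had 369, 474 and 236 against 247, 346 and 348 in AGO1 KD (log2 0.19, SE 0.52, adjusted p = 0.75) and 194, 366 and 237 against 772, 333 and 337 in AGO2 KD (log2 -0.82, SE 0.52, adjusted p = 0.25). Guide 59 had 8 to 27 counts in a library, and its KD and control libraries overlapped in both KDs. Without the second AGO1 KD library guide 35 passed in AGO1 KD (adjusted p = 0.034).

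Of the members below the filter, guides 48-2 and 16 were higher in AGO1 KD when all 174 arms with a count were tested. The median log2 difference of all arms in that fit was 0.81. The share of the 174 arms called is not given here, so these calls are not read as particular to the members. Guide 48-2 had 8, 7 and 19 counts in AGO1 KD and 1, 3 and 6 in its control, or 369, 151 and 407 against 11.2, 41.5 and 77.4 on the spike-in scale (log2 2.78, SE 0.66, adjusted p = 0.00047), and the groups did not overlap. Guide 16 had 3, 3 and 6 counts against 3, 0 and 2 (log2 2.24, SE 0.87, adjusted p = 0.049). In AGO2 KD the same fit gave log2 -1.58 (SE 0.70, adjusted p = 0.14) for guide 48-2 and -0.82 (SE 1.01, adjusted p = 0.65) for guide 16.

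**Figure D5:**
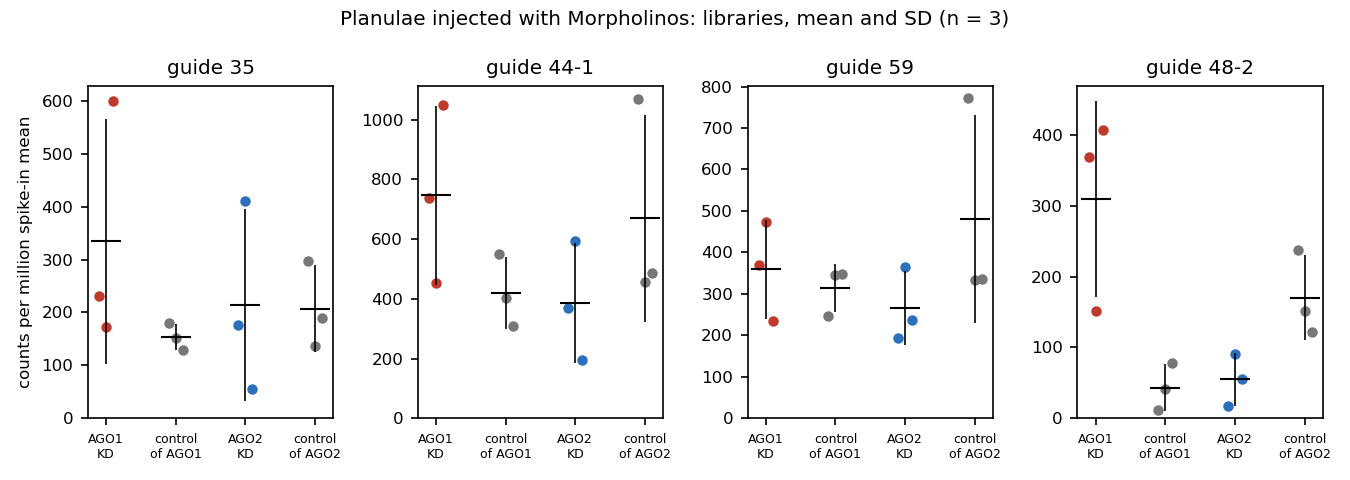
Counts per 1000000 of the spike-in mean in every KD and control library (3 per group) for the 3 members that passed the filter and for guide 48-2, with the group mean (dash) and SD (line); the vertical axes start at 0. The KD and control libraries overlap for guides 35, 44-1 and 59, whereas for guide 48-2 the AGO1 KD libraries lie above their controls and the AGO2 KD libraries below theirs.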

How the data were processed

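Small RNA of 18 IP and 12 KD libraries was analysed from 2 tables of counts per miRNA arm, which the authors made by trimming with cutadapt, whose version the sources used here do not give, and counting with the mirDeep2 quantifier, with default settings for the IP table and without mismatches for the KD table. The deposited IP values are raw counts, and the deposited KD values were handled as estimated counts because of 1 line that holds the authors' spike-in mean, which was left out; all others are whole numbers. The library totals of genome-mapped reads came from the study's own sequencing summary and served only as library sizes. The members and the gene lists were chosen with earlier results of these data known.

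Arms with identical counts were tested once. Arms with at least 10 counts in 2 IP libraries (196) or 3 KD libraries (61) were fitted with edgeR 4.0.16 (glmQLFit, R 4.3.3) and Benjamini-Hochberg adjustment at 0.05. All 18 IP libraries shared 1 fit with 9 residual degrees of freedom. Library sizes were genome-mapped reads between AGOs and for the interaction, the sum of miRNA counts between stages, and the mean of 4 spike-ins in the KDs. The tests were tried on data simulated with known changes. Alternatives were other library sizes, TMM factors, DESeq2 1.42.0, other count filters, the replicate number as a block and leaving out each library. Members described one by one were up to 5 called per stage and direction between AGOs and up to 3 per stage step, by mean level, the top member of each AGO group, members passing the KD filter, and overlapping or seed-sharing members; others named were chosen after their values were seen.

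Same-numbered KD and control libraries were injected together per the study's methods. The correlation of their deviations was -0.27, 0.30 and 0.10 in AGO1 KD and -0.25, 0.09 and -0.06 in AGO2 KD. The IP replicate numbers carry no stated pairing.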

Additional observations from a re-analysis of the deposited data

Results flagged for a closer look

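Guide 48-2 moved in opposite directions in the KDs. On the spike-in scale the log2 ratio of its KD mean to its control mean was 2.83 in AGO1 KD and -1.63 in AGO2 KD, with all 3 libraries of each KD on 1 side of all 3 of its controls. The guide was under the count filter, and the difference between the KDs was not tested.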

How the results depend on the processing

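Between AGOs, the members lower with NveAGO1 numbered 10 in early planulae with miRNA sums and 10 with TMM factors. They numbered 13 in polyps with TMM factors, where 3 were higher (background 30.1% of arms higher), and 16 in adults with miRNA sums. The interaction gave 10 with miRNA sums and 3 with TMM factors, without a share of all arms beside them. Between polyps and early planulae in the NveAGO1 IP, genome-mapped reads gave 6 higher and 0 lower, and TMM factors 1 and 2. In the NveAGO2 IP they gave 12 higher and 0 lower, and DESeq2 0 higher. Between adults and polyps, genome-mapped reads gave 5 higher and 9 lower and TMM factors 6 and 10 in the NveAGO1 IP; in the NveAGO2 IP these were 3 and 16, and 5 and 14, and DESeq2 gave 3 lower. Between adults and polyps the median log2 difference of all arms was -1.44 in the NveAGO1 IP and -1.16 in the NveAGO2 IP with genome-mapped reads. With TMM factors it was -1.27 and 0.14. Without the filter 2 members were higher in AGO1 KD. For the steps and the KD, the shares of all arms called under these settings are not given here. These counts are therefore not read as particular to the members. On the NveAGO2 side by preference were 24, 25 and 18 members with no minimum level, and 5 in early planulae at 50 CPM. With the sum of miRNA counts 0 were on the NveAGO1 side in adults.

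Leaving out 1 library gave 5 to 18, 12 to 16 and 3 to 10 members lower with NveAGO1 in the 3 stages, 0 to 1 higher in adults and 0 to 2 in the interaction. For the steps it gave 13 to 14 lower between the first stages and 6 to 9 higher and 2 to 3 lower in adults with NveAGO1, and 0 to 1 higher, 4 to 5 lower, 6 to 9 higher and 1 to 5 lower with NveAGO2. It gave 0 to 1 higher in AGO1 KD, and by preference 4 to 11, 11 to 12 and 6 to 8 on the NveAGO2 side and 0 to 1 on the NveAGO1 side in adults. The shares of all arms called with 1 library left out are not given here.

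With genome-mapped reads the step from early planulae to polyps in the NveAGO1 IP turned positive for guides 11 (0.87), 16 (0.50), 26 (1.41), 35 (2.67), 44-1 (2.99), 46 (1.51), 56 (0.59), 59 (0.17), 75 (2.42), 85 (1.22), 89 (3.003) and 92 (2.65), and in the NveAGO2 IP for guides 26 (0.53) and 62 (0.75). With TMM factors it turned positive for guides 35 (1.03), 44-1 (1.35), 75 (0.89), 89 (1.38) and 92 (1.05). These follow the shift of all arms between scales. In AGO1 KD guide 44-1 was at -0.22 with miRNA sums and -0.094 with TMM factors, and guide 59 at -0.78 and -0.73. The median of all arms in AGO1 KD was 0.82 on the spike-in scale, -0.13 with miRNA sums and -0.094 with TMM factors. Leaving out 1 library gave -0.10 to 0.45 for guide 59 in AGO1 KD and -0.81 to 0.53 for guide 35 in AGO2 KD. Guide 35 in AGO2 KD was at -0.81 without the second KD library, and at -0.21 and -0.015 without replicates 2 and 3 of the control. The cause of the leave-one-out and KD changes was not tested.

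With the replicate number as a block, guide 87 in early planulae (adjusted p = 0.086) and guide 97 in the NveAGO2 step to adults (adjusted p = 0.056) lost their calls, and no other call of a member was lost. Deviations of same-numbered NveAGO1 and NveAGO2 IP libraries from their group means correlated at -0.19, 0.42 and 0.64 in early planulae, polyps and adults.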
